A study of Mus musculus with 12 samples.

Results

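Pyruvate dehydrogenase kinases and their partner genes of fuel choice were followed in medial prefrontal cortex (PFC) of Fyn-null and control mice given ethanol or saline. The set held 9 named genes, the 4 kinases Pdk1, Pdk2, Pdk3 and Pdk4 together with Angptl4, Cpt1a, Ucp2, Ppara and Ppargc1a, and took every probe set that the platform annotation gives one of these symbols. It found 20 of 45037 probe sets, for 8 of the 9 genes. Ucp2 was not analysed here, because no probe set carried its symbol in the annotation used. Of the 20 probe sets, 14 passed the filter on low values (a mean of at least 5.15 on the log2 scale), as did 24770 of all, and they stood for 7 genes. The 3 probe sets of Ppara and 1 each of Pdk1, Angptl4 and Cpt1a did not pass. The genes were chosen by their ethanol minus saline differences on these arrays and by their place in fuel use, so their differences between ethanol and saline are given as description, with no p-value and with nothing read from how many passed the threshold, whereas differences between genotypes and between the responses of the genotypes were tested.

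The arrays were Affymetrix whole-genome mouse arrays, 12 in number, and each held RNA pooled from 3 male mice, obtained at 12 weeks of age. The 4 groups were Fyn-null ethanol, Fyn-null saline, control ethanol and control saline, with 3 arrays each. Fyn-null mice (B6;129S7-Fyn-tm1Sor/J) lack the tyrosine kinase Fyn in every tissue, and controls (B6129SF2/J) were bought as a stock of their own, so loss of Fyn and difference of stock cannot be told apart. All mice were accustomed to saline injections before the test day, then received 3 g/kg ethanol or saline into the peritoneum, and the tissue was taken 4 hours later. Levels are log2 RMA values, a normalized measure of probe brightness on which a difference of 1 is a doubling, and the level of one probe set cannot be set against that of another. P-values come from limma with Benjamini-Hochberg adjustment over all 24770 probe sets, and called means an adjusted p under 0.05. They measure the spread between pools and not between single mice.

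The mitochondrial pyruvate dehydrogenase complex turns pyruvate from glycolysis into acetyl-CoA. The kinases encoded by Pdk1 to Pdk4 phosphorylate the complex and switch it off, and phosphatases switch it on again. In rodent liver, heart and muscle, Pdk4 rises in fasting and under glucocorticoids and fatty acids, which spares glucose while fat is burned. Angptl4 codes for a secreted inhibitor of lipoprotein lipase that rises in the same states. Cpt1a codes for the outer-membrane enzyme that commits long-chain fatty acids to mitochondrial oxidation, Ppara for a nuclear receptor that fatty acids activate, and Ppargc1a for PGC-1alpha, a coactivator of mitochondrial genes. Within the brain, neurons draw mainly on glucose and lactate, and fatty acid oxidation lies largely in astrocytes.

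The promoters of the 4 kinases are shown because the kinases, which act on the same complex, had unlike ethanol differences. Each sequence is the 250 bases before the gene's start, 5′ to 3′ on the gene's strand, from RefSeq (GRCm38.p6), with every CG dinucleotide in capitals. For Pdk1 and Pdk2, which have 2 windows each, the window with more CG dinucleotides is printed. The Pdk4 window lies at chr6:5496279-5496528 on the minus strand, that of Pdk1 at chr2:71872974-71873223 on the plus strand, that of Pdk2 at chr11:95041372-95041621 on the minus strand and that of Pdk3 at chrX:93832151-93832400 on the minus strand.
Pdk4: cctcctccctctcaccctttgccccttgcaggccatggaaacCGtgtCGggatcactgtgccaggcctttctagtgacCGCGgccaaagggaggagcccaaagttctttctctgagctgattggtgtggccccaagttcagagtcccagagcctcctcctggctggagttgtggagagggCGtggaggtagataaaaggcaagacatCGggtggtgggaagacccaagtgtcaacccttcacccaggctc
Pdk1: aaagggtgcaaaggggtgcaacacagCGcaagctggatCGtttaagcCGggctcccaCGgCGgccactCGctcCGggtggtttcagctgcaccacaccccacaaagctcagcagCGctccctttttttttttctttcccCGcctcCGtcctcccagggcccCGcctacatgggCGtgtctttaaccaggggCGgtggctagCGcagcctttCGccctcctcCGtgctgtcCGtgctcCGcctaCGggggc
Pdk2: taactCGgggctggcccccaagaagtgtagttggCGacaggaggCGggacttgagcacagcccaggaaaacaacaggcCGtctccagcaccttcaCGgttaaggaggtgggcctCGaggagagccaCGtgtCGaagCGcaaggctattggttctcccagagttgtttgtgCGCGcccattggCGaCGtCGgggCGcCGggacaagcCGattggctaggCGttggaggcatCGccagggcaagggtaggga
Pdk3: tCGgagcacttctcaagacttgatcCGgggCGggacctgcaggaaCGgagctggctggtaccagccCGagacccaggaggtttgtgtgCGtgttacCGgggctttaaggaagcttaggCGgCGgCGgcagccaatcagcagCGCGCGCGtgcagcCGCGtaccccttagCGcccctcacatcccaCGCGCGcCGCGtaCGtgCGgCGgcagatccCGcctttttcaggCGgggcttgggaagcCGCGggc
The Pdk4 window held 6 CG dinucleotides, which is the median of all 32851 windows of this length. The windows of Pdk1, Pdk2 and Pdk3 held 19, 19 and 29, and the other windows of Pdk1 and Pdk2 held 2 and 12. Of the other genes, Ppara had 27, Ucp2 16, Cpt1a 14 and Ppargc1a 5, and Angptl4 had no match in the promoter table. Sequence motifs were searched on both strands in the 10 windows of 8 genes. The PPAR element (AGGTCA, 1 base of any kind, AGGTCA), the glucocorticoid element (AGAACA, 3 bases of any kind, TGTTCT), the FOXO site GTAAACA and the TATA box TATAAA, found in 0.0335%, 0.00913%, 3.17% and 12.4% of all windows, were in 0 of the 10. The nuclear receptor site AGGTCA, which also forms part of the PPAR element, was in the Cpt1a window (14% of all windows), AGAACA, which is also the first part of the glucocorticoid element, in the other Pdk1 window (16.1%), and the E-box CACGTG in the printed Pdk2 window (6.02%). The exact PPAR and glucocorticoid elements are so rare that no match was to be expected in 10 windows, so their absence says nothing about these genes. A match is a run of letters and not a bound site.

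Array medians were 5.40 to 5.48, and arrays correlated at 0.982 to 0.997. Fyn itself, by the brighter of its probe sets, was 8.75 to 9.01 in Fyn-null ethanol and 8.64 to 9.45 in Fyn-null saline pools, against 9.33 to 9.70 in control ethanol and 8.74 to 9.65 in control saline pools. Replicate 4 labelled Fyn-null saline (9.45) fell among the controls and replicate 2 labelled control saline (8.74) among the Fyn-null pools, so results are also given without both. This rests on the brighter probe set. By the next brightest they were at 7.75 and 7.53, while the other Fyn-null pools were at 7.50 to 7.81. The other control pools were at 7.65 to 7.95, so the genotypes overlapped there without these pools too. The difference between 3′ and 5′ probe sets of Gapdh and beta-actin, a sign of RNA integrity, moved with treatment, at 0.39 to 0.63 in Fyn-null ethanol and 0.76 to 0.85 in Fyn-null saline pools, and at 0.40 to 0.48 in control ethanol and 0.54 to 0.99 in control saline pools. Endothelial markers were lower under ethanol, with 5 of 6 called and a mean over the list of 6.83 to 7.00 in Fyn-null ethanol and 7.22 to 7.38 in Fyn-null saline pools, and 6.59 to 6.82 in control ethanol and 7.21 to 7.35 in control saline pools. The markers of astrocytes, microglia, oligodendrocytes, and excitatory and inhibitory neurons of cortex all passed the filter where measured. Over both genotypes 0 of 6, 0 of 5, 0 of 4, 0 of 4 and 0 of 5 were called for ethanol, against 6.81% of all probe sets. The mean over the excitatory neuron markers was 9.59 to 9.70 in Fyn-null ethanol and 9.87 to 9.93 in Fyn-null saline pools, without overlap. In control mice the treatments overlapped, at 10.07 to 10.17 under ethanol and 9.91 to 10.30 under saline. Of pericyte and smooth muscle markers 1 of 4 was called lower under ethanol (Rgs5, -0.33, adjusted p = 0.0167, limma), as was Alas2 of red blood cells (-0.37, adjusted p = 0.0285). In whole tissue, fewer cells of a type and less RNA per cell cannot be told apart. The part of RNA integrity and of vessel, blood and excitatory neuron RNA in the following results was not tested.

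Pdk4 was higher under ethanol in both genotypes. Its probe set (1417273_at) was at 7.30, 7.07 and 7.13 in Fyn-null ethanol pools, against 6.29, 6.17 and 5.97 in Fyn-null saline pools. In control ethanol pools it was at 7.32, 7.20 and 7.02, against 6.17, 5.79 and 6.06 in control saline pools. All 6 ethanol pools thus lay above all 6 saline pools, with 0.73 between the lowest ethanol pool and the highest saline pool. The difference was 1.02 ± 0.12 (standard error, SE) in Fyn-null mice, 1.17 ± 0.12 in control mice and 1.10 ± 0.085 over both genotypes, the last a 2.14-fold higher level. Without both pools whose Fyn values went against their labels the difference over both genotypes was 1.00.

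Angptl4, the secreted lipase inhibitor, had the other clear ethanol difference in the set. Its probe set 1417130_s_at, a design whose probes can be shared by several transcripts, was at 6.08, 6.23 and 6.36 in Fyn-null ethanol pools, against 5.57, 5.24 and 5.28 in Fyn-null saline pools. It was at 6.37, 6.04 and 6.28 in control ethanol pools, against 5.38, 5.35 and 5.57 in control saline pools. Again the ethanol pools of each genotype lay above its saline pools. The difference was 0.86 ± 0.12 (SE) in Fyn-null mice and 0.80 ± 0.12 in control mice, and 0.83 ± 0.081 over both, a 1.78-fold higher level. The other Angptl4 probe set (1453410_at) did not pass the filter and lay between 1.97 and 2.33 in all 12 pools, near the lowest value on the arrays (1.62).

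**Figure D1:**
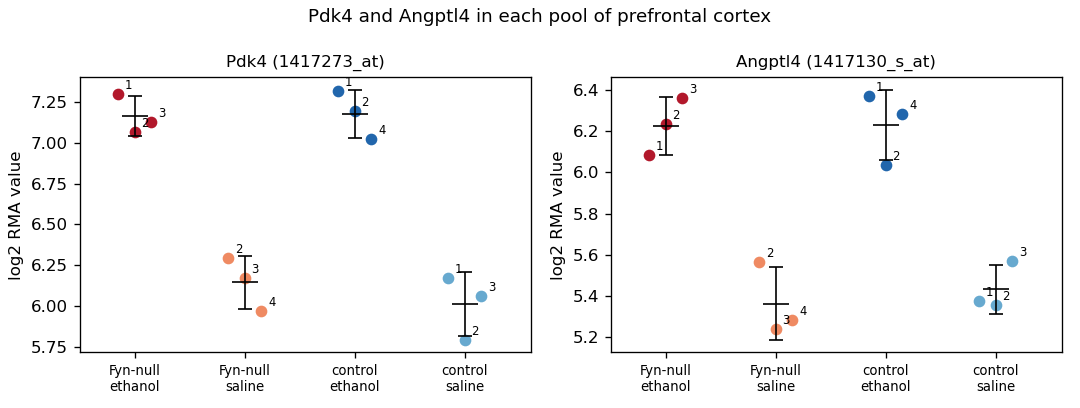
Log2 RMA value (vertical axis) of Pdk4 and Angptl4 in each pool of the 4 groups (horizontal axis), numbered by replicate, with the mean and SD of 3 pools as bars. For both genes the ethanol pools of each genotype sit above its saline pools, and the mean Pdk4 values of the Fyn-null ethanol and control ethanol groups are 7.17 and 7.18.

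The other 3 pyruvate dehydrogenase kinases did not share the size of the Pdk4 difference. Pdk1, known as a target of the hypoxia-inducible factor, had 4 probe sets that differed from each other. The probe set 1423747_a_at was at 7.92, 7.80 and 7.73 in Fyn-null ethanol pools, against 7.59, 7.17 and 6.96 in Fyn-null saline pools. It was at 7.45, 7.00 and 7.42 in control ethanol pools, against 6.95, 7.22 and 7.08 in control saline pools. The treatments did not overlap in Fyn-null mice (0.57 ± 0.16, SE) and overlapped in control mice (0.20 ± 0.16). The ethanol differences of the Pdk1 probe sets 1423748_at and 1435836_at over both genotypes were 0.16 ± 0.087 and -0.017 ± 0.077, with overlapping pools in both genotypes.

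Pdk2, the most widely expressed of the isoforms, had 1 probe set (1448825_at), at 8.26, 8.08 and 8.23 in Fyn-null ethanol pools and at 8.14, 8.24 and 7.99 in Fyn-null saline pools. In control mice it was at 8.34, 8.39 and 8.45 under ethanol and at 8.36, 8.14 and 8.26 under saline. The treatments overlapped in both genotypes, and the difference over both was 0.10 ± 0.062 (SE). Pdk3, the X-linked isoform, was the steadiest of the 4 kinases (1426410_at), with values between 7.17 and 7.38 in all 12 pools and a difference of -0.017 ± 0.051 over both genotypes. Its treatments overlapped in Fyn-null mice. In control mice they did not, at 7.24, 7.23 and 7.17 under ethanol against 7.29, 7.26 and 7.26 under saline (-0.055 ± 0.073). Control treatments were apart in this way for 23.0% of all probe sets. The 95% interval of the ethanol difference ran from -0.031 to 0.24 for Pdk2, from -0.13 to 0.092 for Pdk3 and from 0.91 to 1.28 for Pdk4. Intervals of ethanol differences, here and below, are not adjusted for the choice of the genes by these differences and are description.

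Cpt1a, the gateway of mitochondrial fat oxidation, showed no ethanol difference of that kind. Its probe set 1460409_at was at 6.83, 6.44 and 6.72 in Fyn-null ethanol and 6.76, 6.74 and 6.77 in Fyn-null saline pools, and at 6.80, 6.56 and 6.72 in control ethanol and 6.60, 6.69 and 6.83 in control saline pools. The treatments overlapped in both genotypes, and the difference over both was -0.051 ± 0.074 (SE), with a 95% interval from -0.21 to 0.11. The second probe set that passed (1434866_x_at) was lower in all control ethanol pools (5.14, 5.31 and 5.29) than in control saline pools (5.56, 5.44 and 5.46), a difference of -0.24 ± 0.12, and differed by -0.0042 ± 0.12 in Fyn-null mice.

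Ppara, the fatty acid receptor, had 3 probe sets, which fell below the filter on low values and were not tested. The probe set 1449051_at was at 5.09, 4.93 and 5.17 in Fyn-null ethanol pools and at 4.79, 4.39 and 5.01 in Fyn-null saline pools. It was at 5.63, 5.14 and 4.91 in control ethanol pools and at 4.88, 4.80 and 4.71 in control saline pools. The groups overlapped in Fyn-null mice and did not in control mice, with differences of the means of 0.34 and 0.42. The Ppara probe sets 1439675_at and 1457721_at differed by 0.23 and 0.098 over both genotypes and their pools overlapped in both.

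Ppargc1a, the coactivator gene, had 5 probe sets that passed, and their ethanol differences over both genotypes ran from -0.061 to 0.76. The largest (1460336_at, 0.76 ± 0.36, SE) had 1 pool far above the rest, with values of 8.82, 6.97 and 6.26 in control ethanol pools and 6.11, 5.61 and 6.81 in control saline pools. Without that pool the control difference was 0.44 in place of 1.18. In Fyn-null mice the same probe set was at 6.35, 6.21 and 6.13 under ethanol and at 6.22, 5.94 and 5.46 under saline. The probe set 1437751_at was at 7.44, 7.38 and 7.41 in Fyn-null ethanol pools, against 7.40, 7.24 and 7.22 in Fyn-null saline pools, and at 7.55, 7.50 and 7.41 in control ethanol pools, against 7.40, 7.30 and 7.38 in control saline pools. The control treatments of this probe set did not overlap, and its difference over both genotypes was 0.13 ± 0.052. Those of 1456395_at did not overlap either but went the other way. It was at 7.17, 7.16 and 7.13 in control ethanol pools, against 7.26, 7.27 and 7.28 in control saline pools (-0.12 ± 0.081). In Fyn-null mice its treatments overlapped (0.096 ± 0.081). Control treatments did not overlap for 23.0% of all probe sets.

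**Figure D2:**
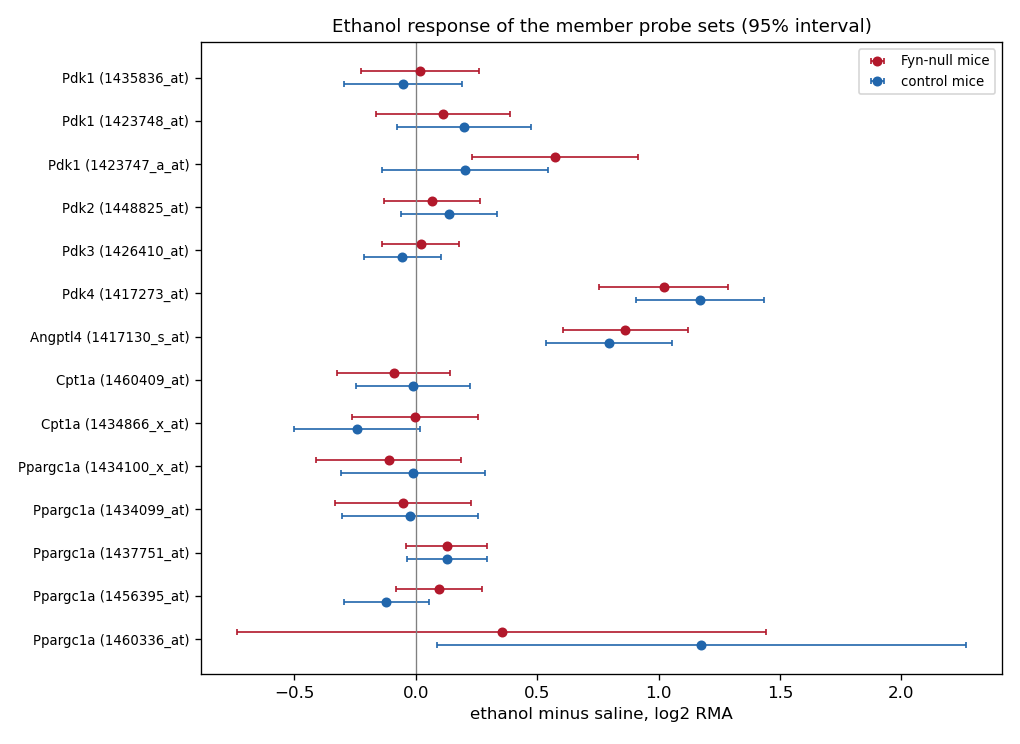
Ethanol minus saline difference (horizontal axis, log2 RMA) of the 14 probe sets that passed (vertical axis), in Fyn-null and in control mice, with 95% intervals from limma. Pdk4 and Angptl4 stand at 0.80 to 1.17 in both genotypes. The intervals of the Ppargc1a probe set 1460336_at are the widest, from 0.087 to 2.26 in control and from -0.73 to 1.44 in Fyn-null mice. The genotypes share 1 estimate of the spread, so their intervals are equally wide.

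Because the genes were chosen by these same differences, the following counts describe the choice and test nothing. Of the 14 probe sets, 2 (Pdk4 and Angptl4) were past the threshold and higher under ethanol over both genotypes, in Fyn-null mice and in control mice. Of all probe sets, 6.81% were called over both genotypes (2.58% higher), 0.400% in Fyn-null mice (0.254% higher) and 1.43% in control mice (0.509% higher). The same 2 probe sets were past it without both pools whose Fyn values went against their labels. Treatments did not overlap for 2 of the 14 over both genotypes (3.90% of all), 3 in Fyn-null mice (18.1%) and 6 in control mice (23.0%). The median ethanol difference over the 14 probe sets was 0.045 over both genotypes, beside -0.021 over all probe sets. The 3′ to 5′ difference of each array was also added as a covariate. Over both genotypes, in Fyn-null mice and in control mice, the differences were then 1.13, 1.04 and 1.19 for Pdk4. For Angptl4 they were 0.83, 0.87 and 0.81. Within each genotype the covariate did not overlap between the treatments, so its part and that of ethanol cannot be told apart well. With the covariate Pdk4 was past the threshold over both genotypes and in control mice, and Angptl4 in none of the 3 comparisons. Of all probe sets 27, 15 and 16 were called over both genotypes, in Fyn-null mice and in control mice.

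The ethanol responses of the 2 genotypes were compared by their interaction, taken as the Fyn-null response minus the control response. For Pdk4 this difference was -0.15 ± 0.17 (SE), with a 95% interval from -0.52 to 0.23 (adjusted p = 0.992, limma). For Angptl4 it was 0.066 ± 0.17, from -0.30 to 0.43 (adjusted p = 0.999). The widest difference was that of Ppargc1a 1460336_at with its high pool, at -0.82 ± 0.71 (adjusted p = 0.992), followed by Pdk1 1423747_a_at at 0.37 ± 0.22 (adjusted p = 0.992). Of the 14 probe sets 0 were called by limma and 0 had an unadjusted p under 0.05, against 0% and 4.13% of all probe sets.

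No genotype difference in Pdk4 or Angptl4 was detected at the precision of these arrays. Under ethanol the Fyn-null minus control difference was -0.014 ± 0.12 (SE) for Pdk4, with a 95% interval from -0.28 to 0.25, and -0.0038 ± 0.12 for Angptl4, from -0.26 to 0.25. Under saline it was 0.14 ± 0.12 for Pdk4, from -0.13 to 0.40, and -0.070 ± 0.12 for Angptl4, from -0.33 to 0.19. The pools of the genotypes overlapped in each case.

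Some probe sets of Pdk1 and Ppargc1a had the larger genotype differences of the set. Markers of excitatory cortical neurons were also apart under ethanol, with a mean over the 4 markers of 9.59 to 9.70 in Fyn-null ethanol against 10.07 to 10.17 in control ethanol pools. Under saline the genotypes overlapped, at 9.87 to 9.93 in Fyn-null against 9.91 to 10.30 in control pools. Of these markers 0 of 4 were called between the genotypes over both treatments. As 0 of all 24770 probe sets were called there, this count says nothing about the markers. Their part in the genotype differences was not tested. Under ethanol the Pdk1 probe set 1423747_a_at was higher in all Fyn-null pools (7.73 to 7.92) than in all control pools (7.00 to 7.45), by 0.53 ± 0.16 (SE, adjusted p = 0.19, limma), and under saline the genotypes overlapped (0.16 ± 0.16, adjusted p = 1.00). The Pdk1 probe set 1435836_at differed by 0.20 ± 0.11 under ethanol without overlap (adjusted p = 0.456, limma). For 1423748_at the difference was 0.091 ± 0.13 with overlap (adjusted p = 0.802). The Pdk1 probe set 1434974_at, which did not pass the filter, was at 5.71, 5.32 and 5.41 in Fyn-null ethanol pools, against 4.31, 4.56 and 4.52 in control ethanol pools. Under saline it was at 5.68, 5.15 and 4.76 in the pools labelled Fyn-null replicates 2, 3 and 4, against 4.77, 5.58 and 4.17 in the pools labelled control replicates 1, 2 and 3. Its ethanol groups were thus 1.02 apart without overlap, while in the saline groups the 2 pools whose Fyn values went against their labels crossed over.

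The Ppargc1a probe set 1456395_at was at 7.66, 7.43 and 7.46 in Fyn-null ethanol pools, against 7.17, 7.16 and 7.13 in control ethanol pools. It was at 7.52, 7.38 and 7.35 in Fyn-null saline pools, against 7.26, 7.27 and 7.28 in control saline pools. All 6 Fyn-null pools lay above all 6 control pools, and for 0.307% of all probe sets the genotypes did not overlap in either direction. The doubtful pools thus went with their labels here, at 7.35 (Fyn-null saline replicate 4) and 7.27 (control saline replicate 2). The difference over both treatments was 0.26 ± 0.062 (SE, adjusted p = 0.316, limma), and under ethanol it was 0.36 ± 0.081 (adjusted p = 0.129). The other Ppargc1a probe sets did not go the same way, with differences over both treatments of -0.099, 0.0072, -0.075 and -0.71. The last was that of 1460336_at, whose control ethanol replicate 1 at 8.82 stood 1.85 above the next control ethanol pool.

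**Figure D3:**
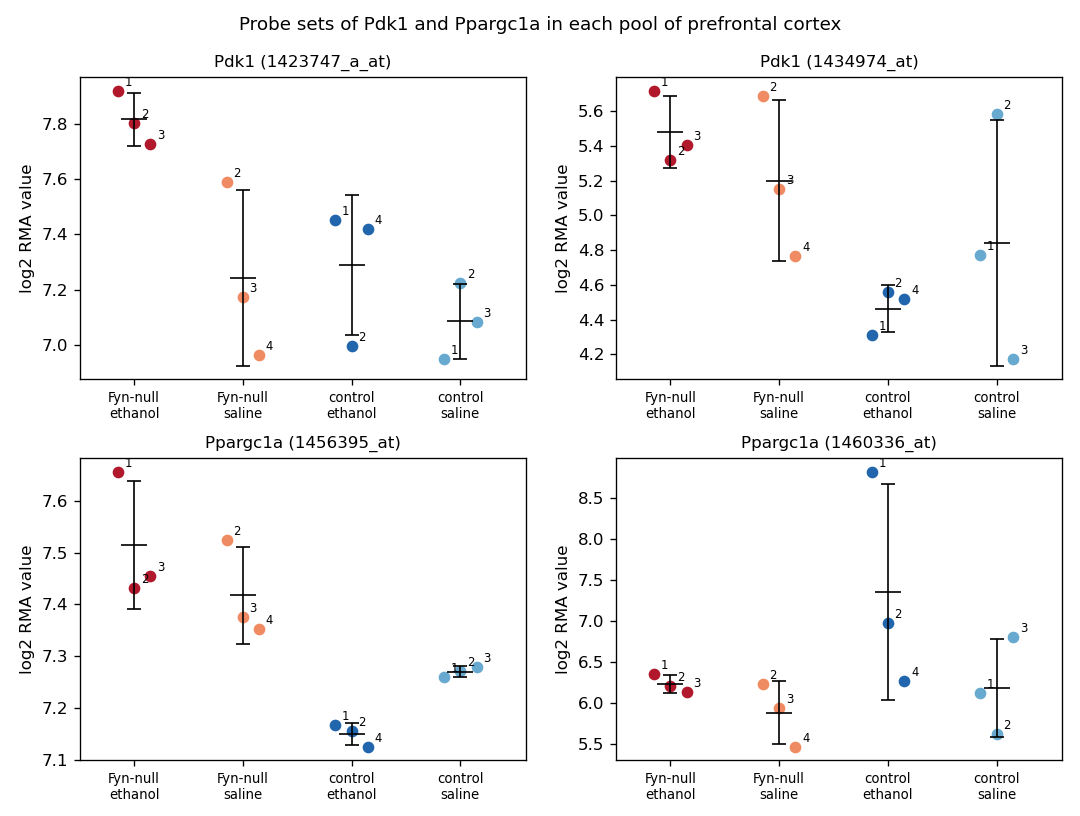
Log2 RMA value (vertical axis) of the 2 Pdk1 and 2 Ppargc1a probe sets with the widest spread between genotypes, in each pool of the 4 groups (horizontal axis), numbered by replicate, with the mean and SD of 3 pools as bars. Ppargc1a 1456395_at parts all Fyn-null from all control pools, whereas 1460336_at has 1 control ethanol pool at 8.82.

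No probe set of the set was called between the genotypes, as was also true of all 24770 probe sets (0%) under ethanol, under saline and over both treatments. Unadjusted p-values under 0.05 were found for 4 of the 14 under ethanol (13.6% of all probe sets), 0 under saline (1.89%) and 4 over both treatments (11.1%). The genotypes did not overlap under ethanol for 5 of the 14 probe sets (20.3% of all). Of these, Pdk2 was the 1 that was lower in Fyn-null mice, at -0.20 ± 0.091 (SE, adjusted p = 0.364, limma). Pdk3 was among those that were higher, at 0.077 ± 0.073 (adjusted p = 0.691). Under saline the genotypes did not overlap for 1 (5.16%), the Ppargc1a probe set 1456395_at. Without both pools whose Fyn values went against their labels, 2 of the 14 were called over both treatments (2.7% of all), namely Pdk1 1423747_a_at at 0.46 ± 0.11 (adjusted p = 0.0432) and Ppargc1a 1456395_at at 0.29 ± 0.069 (adjusted p = 0.0475). Pdk1 1435836_at and 1423748_at were then at 0.21 ± 0.073 and 0.22 ± 0.083 and were not called (adjusted p = 0.159 and 0.209, limma). The omission of these pools was added with the data in view.

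**Figure D4:**
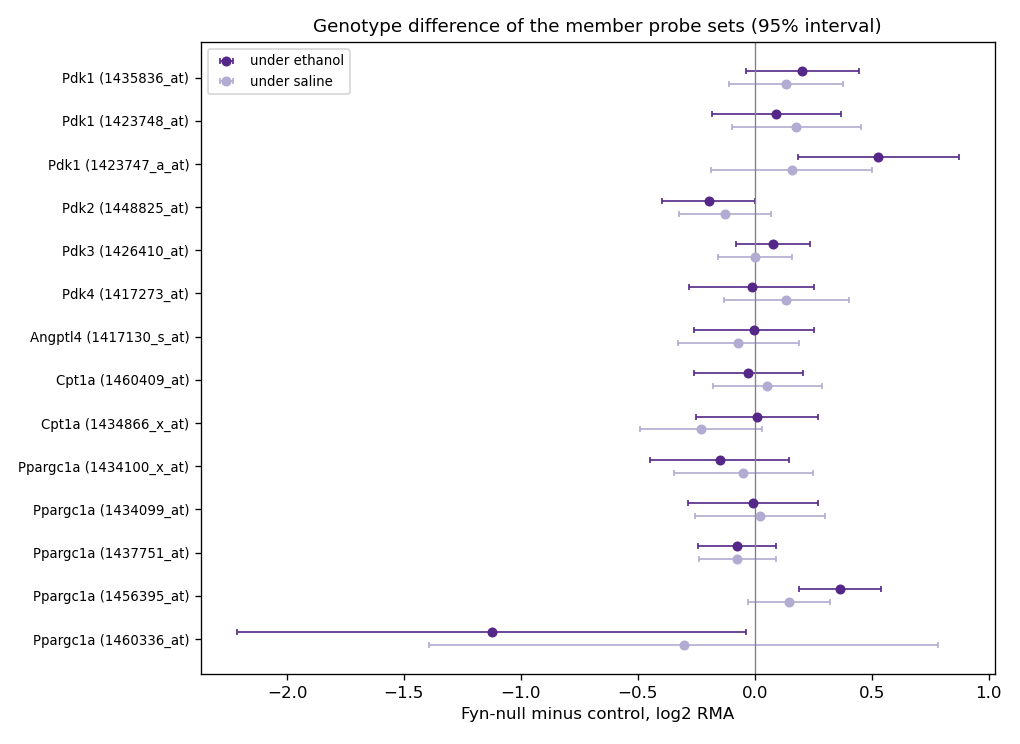
Fyn-null minus control difference (horizontal axis, log2 RMA) of the 14 probe sets that passed (vertical axis), under ethanol and under saline, with 95% intervals from limma. Pdk4 and Angptl4 lie within 0.14 of 0 under both treatments, and Ppargc1a 1456395_at (0.36) and Pdk1 1423747_a_at (0.53) lie to the right of 0 under ethanol.

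Other genes of the same metabolism were taken from 10 lists with 112 genes, of which 98 passed the filter, each represented by its probe set with the highest mean. The lists were also drawn up with earlier results of these data known, so their p-values and counts are not independent evidence. Over both genotypes, 5 were called higher and 6 lower under ethanol, or 11.2% of those tested, beside 6.69% of all 12323 genes (233 higher and 592 lower). The median difference over the lists was -0.011, beside -0.038 over all genes. Between the genotypes 0 of the 98 were called by limma. Without both pools whose Fyn values went against their labels 8 of the 11 stayed called for ethanol and Acadvl, Hadha and Tfb1m did not, and under the replicate block Slc2a1, Pnpla2, Klf15 and Prkag2 stayed. With the 3′ to 5′ covariate Slc2a1 alone stayed.

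The genes called higher stand at the entry of glucose, the release of stored fat, transcription and energy sensing. Slc2a1, the GLUT1 glucose transporter of the blood-brain barrier and glia, was at 9.72, 9.40 and 9.79 in Fyn-null ethanol pools, against 8.85, 8.89 and 8.86 in Fyn-null saline pools, and at 9.64, 9.70 and 9.50 in control ethanol pools, against 9.02, 8.79 and 9.09 in control saline pools. Its difference was 0.71 ± 0.077 (SE, adjusted p = 0.000305, limma), opposite in sign to that of 6 endothelial markers (-0.084 to -0.92). Pnpla2, the adipose triglyceride lipase, was at 7.47, 7.40 and 7.51 in Fyn-null ethanol pools, against 6.82, 6.97 and 6.91 in Fyn-null saline pools, and at 7.52, 7.31 and 7.16 in control ethanol pools, against 6.86, 6.93 and 6.90 in control saline pools. Its difference was 0.50 ± 0.066 (adjusted p = 0.0012). Klf15, a transcription factor of amino acid and lipid use, was at 7.68, 7.55 and 7.54 in Fyn-null ethanol pools, against 7.16, 7.24 and 7.11 in Fyn-null saline pools, and at 7.85, 7.57 and 7.59 in control ethanol pools, against 7.00, 7.15 and 7.19 in control saline pools. Its difference was 0.49 ± 0.067 (adjusted p = 0.00147). Of the 98 genes, Slc2a1 and Pnpla2 were also called in each genotype alone, and Klf15 in control mice. Prkag2 and Prkab2, regulatory subunits of AMP-activated kinase, were higher by 0.33 ± 0.070 (adjusted p = 0.0176) and 0.29 ± 0.068 (adjusted p = 0.025).

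The 6 genes called lower were led by Pdp1, the phosphatase that reverses the action of the pyruvate dehydrogenase kinases. Pdp1 was at 10.21, 10.04 and 10.13 in Fyn-null ethanol pools, against 10.71, 10.54 and 10.12 in Fyn-null saline pools, and at 10.14, 10.13 and 10.22 in control ethanol pools, against 10.72, 10.47 and 10.55 in control saline pools. The Fyn-null treatments overlapped through the saline pool labelled replicate 4, and the difference was -0.37 ± 0.089 (SE, adjusted p = 0.0275, limma). The other 7 genes of the pyruvate dehydrogenase complex list were not called, with differences up to 0.090 (Dlat, the acetyltransferase subunit). Slc16a1, the MCT1 lactate and pyruvate carrier, was lower at -0.36 ± 0.077 (adjusted p = 0.0162), and so was Nr3c1, the glucocorticoid receptor, at -0.36 ± 0.076 (adjusted p = 0.0161). The beta-oxidation enzymes Acadvl and Hadha were lower as well, Acadvl at -0.22 ± 0.060 (adjusted p = 0.043) and Hadha at -0.21 ± 0.053 (adjusted p = 0.0348). Tfb1m, a methyltransferase of the mitochondrial ribosome, was lower at -0.27 ± 0.070 (adjusted p = 0.0348).

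List by list, glucose uptake and glycolysis had 1 of 15 called higher (Slc2a1) and a median difference of -0.031, and its glycolytic enzyme Pfkp was at -0.19 (adjusted p = 0.0549, limma). Fatty acid import and beta-oxidation had 2 of 19 called lower and a median of -0.048. Lipid droplets and lipolysis had 1 of 10 called higher, and Abhd5, the coactivator of Pnpla2, was at -0.21 (adjusted p = 0.106). The regulators known to act on Pdk4 and the partners of PPAR had 1 of 15 called higher (Klf15) and 1 lower (Nr3c1). Of the AMPK and sirtuin list 2 of 10 were called higher, with a median of 0.12. Pyruvate and lactate handling had 1 of 5 called lower and Ldha, a lactate dehydrogenase subunit, at -0.14 (adjusted p = 0.179). Of ketone body genes 0 of 3 were called (Bdh1 0.14, Acat1 -0.017), and of uncoupling proteins 0 of 3 (Slc25a27 0.17, Slc25a14 -0.20). The list of mitochondrial biogenesis had 1 of 10 called lower, while Tfb2m, a mitochondrial transcription factor, was at 0.33 (adjusted p = 0.0572). In the comparison of genotypes over both treatments Tfb2m was at -0.33 ± 0.097 (SE, adjusted p = 0.334), and without both pools whose Fyn values went against their labels it was the 1 gene of the 98 that was called, at -0.43 ± 0.077 (adjusted p = 0.0123).

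**Figure D5:**
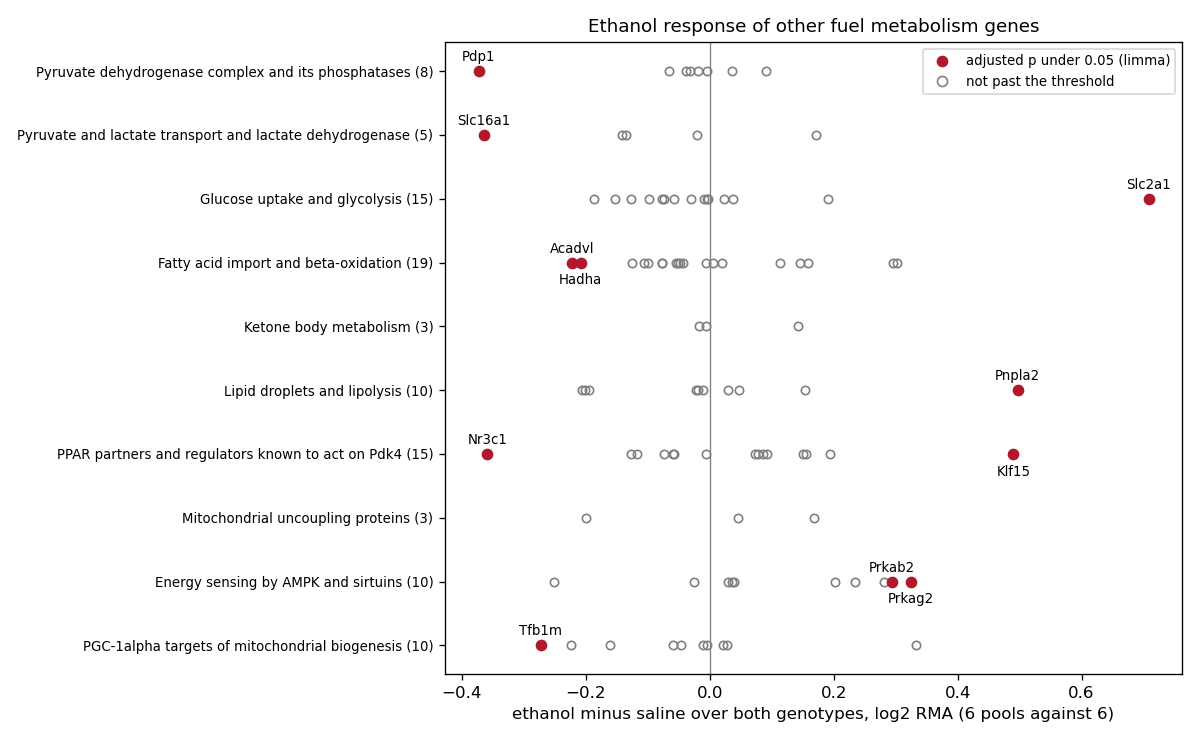
Ethanol minus saline difference over both genotypes (horizontal axis, log2 RMA, 6 pools against 6) of 98 genes in 10 lists (vertical axis, number of genes in brackets), with each gene a point and those with an adjusted p under 0.05 filled and named. Slc2a1 lies farthest to the right at 0.71, and Pdp1 farthest to the left at -0.37.

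The genes whose levels ran most like Pdk4 were ranked by Pearson's r over the 12 arrays, which share 4 groups. Trp53inp1, a stress protein gene, came first (0.984), followed by the kinase gene Sgk1 (0.973), the arrestin-domain gene Arrdc2 (0.970), the transcription factor gene Cebpa (0.970) and the leucine zipper gene Tsc22d3 (0.969). Of 12316 genes, 46 had an r over 0.9, and Angptl4 was at 0.935. These 5 genes were each higher under ethanol, by 0.54 (Cebpa) to 1.36 (Tsc22d3). This follows from the ranking, because the Pdk4 values themselves part by treatment, and is no separate result. After the mean of each group was subtracted, the order changed, and Nedd4l (0.949), Tmem119 (0.943), Sema3c (0.941), Ubash3b (0.939) and Kcnq5 (0.935) came first. Within groups Angptl4 was at 0.193 and Ppargc1a 1437751_at, of the coactivator gene, at 0.861 (0.768 over all 12 arrays). With 12 arrays such correlations are a description of these pools.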

How the data were processed

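PFC RNA of pools of 3 mice was hybridized to 12 arrays. The authors deposited log2 values made with affy and RMA (submitters' processing notes). Their versions, and whether the hybridization batch step of the methods was applied to the deposited values, are not stated in the sources used here. Control probe sets (64) and the 45% with the lowest mean were left out. limma 3.58.1 in R 4.3.3 fitted the 4 group means (responses by genotype, interaction) and additive terms (over both). The number of pools limits the precision, with a median SE of 0.11 for 3 pools against 3 and 0.076 for 6 against 6. Symbols came from GEO's platform annotation (34945 probe sets with 1 symbol, 932 with several, 9160 with none), and 34741 of the 34945 matched RefSeq. Members and lists were chosen with earlier results of these data known. All member probe sets were named, and per list up to 4 called genes with the largest differences, filled up to 2 by the smallest p. Fits were tested on simulated data. Pools were not paired by number: 3 of 13 same-numbered pairs had a residual correlation over 0.1 (range -0.43 to 0.32). Alternatives were no filter, a filter of 60%, quantile normalization, the replicate block, trend and robust, array weights, only the 2 groups compared, the mean of a gene's probe sets and leaving out each pool. The 3′ to 5′ covariate and leaving out both doubtful pools were added after the data were seen.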

Additional observations from a re-analysis of the deposited data

Results flagged for a closer look

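Atp5b, which codes for a subunit of the mitochondrial ATP synthase and stood on the list of PGC-1alpha targets, had ethanol differences of opposite sign in the 2 genotypes, and neither passed the threshold. Its probe set was at 12.62, 12.59 and 12.58 in Fyn-null ethanol pools, against 12.57, 12.53 and 12.49 in Fyn-null saline pools, so that ethanol was higher by 0.066 without overlap. In control ethanol pools it was at 12.48, 12.48 and 12.49, against 12.49, 12.50 and 12.52 in control saline pools, a difference of -0.022, also without overlap. Treatments did not overlap for 18.1% of all probe sets in Fyn-null mice and 23.0% in control mice. The difference between the responses was 0.088 ± 0.090 (SE, adjusted p = 0.992, limma), which did not pass the threshold.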

How the results depend on the processing

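Of the values of single member probe sets under the alternatives, 1969 kept their side of the threshold or moved by less than the spread between pools, 17 moved by more, 8 passed and 8 lost the threshold, and 0 reversed. The 2 probe sets called for the ethanol responses became 1 in each of the 3 comparisons with a filter of 60%, which left out the Angptl4 probe set. With the replicate block 1 was called in Fyn-null and 1 in control mice (Pdk4), and 4 pathway genes in place of 11, all among the 11. In the fit of only the 2 groups compared 1 was called in control mice. With array weights, whose estimation did not converge, 3 were called between the genotypes under ethanol. That fit called 3975 of all probe sets in the same comparison, so such calls were not limited to the set. With the 3′ to 5′ covariate 0 were called in Fyn-null mice, 1 in control mice and 1 over both, and 1 pathway gene (Slc2a1). Of all probe sets 15, 16 and 27 were called in these fits. Without both doubtful pools 2 were called between the genotypes over both treatments, and 1 pathway gene. The causes were not tested. Leaving out each pool gave 1 to 2 called in Fyn-null mice (1 without Fyn-null ethanol replicate 3), 2 in control mice and 2 to 3 over both. It gave 6 to 13 pathway genes for ethanol, with 6 without Fyn-null ethanol replicate 2 and 7 without Fyn-null saline replicate 3, and 0 to 1 between the genotypes (1, Tfb2m, without control saline replicate 2). The replicate block changed no other of these counts.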
